A study of Bos taurus with 10 samples.

Results

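Plasmin is a protease that is made where it is needed, when plasminogen, an inactive protein of blood and follicular fluid, is cut by a plasminogen activator. *PLAT* encodes the tissue type and *PLAU* the urokinase type of activator, *PLAUR* encodes the receptor that holds urokinase at the cell surface, and serpins are inhibitors, most of which trap a protease by letting it cut a loop of their own. In the ovary the system is known for the loosening of the follicle wall and of the cumulus matrix around ovulation, and mouse and rat oocytes store *PLAT* mRNA that is translated when meiosis resumes. The genes described here are *PLAT*, *PLAU*, *PLAUR* and 4 serpins, *SERPINE2*, *SERPINA14*, *SERPINA5* and *SERPINF2*. They were chosen by name, with earlier results of these data known, and every probe set whose only gene is among them was taken. This gave 9 probe sets of 7 genes out of 24016 tested probe sets, of which the named ones stood for 9155 genes.

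The samples were 5 pools of in vitro matured (IVM) and 5 pools of immature bovine oocytes, each on its own Affymetrix bovine array. All oocytes came from cumulus oocyte complexes of 3 to 8 mm follicles of slaughtered cows, and the sources used here give neither breed nor age. IVM complexes were kept for 24 h at 39 °C under 5% CO2 in TCM-199 with 10 ng/ml of EGF and 10% calf serum added, and were then stripped of cumulus cells, while immature oocytes were stripped straight after collection, with no culture. By the study's methods a replicate was a day of ovary collection and a pool held 100 oocytes, from a number of animals not given in the sources used here. Culture, cumulus contact during those hours and meiotic stage all differ between the groups and cannot be told apart. In pooled RNA, fewer cells of a type and less RNA per cell cannot be told apart either. The RNA was amplified with a 3' amplification kit. The study names poly(A) tail length as a possible source of preferential amplification in cDNA synthesis. By qPCR of a panel of genes it compared random with anchored oligo(dT) priming. It reported similar patterns for both, with a tendency to higher folds for oligo(dT) that was not significant. On the arrays themselves a longer tail and more RNA cannot be told apart.

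A value is the log2 summary of the probes of a probe set on an array. A difference is the IVM mean minus the immature mean, its standard error and adjusted p are from limma over all 24016 probe sets, and a call is an adjusted p under 0.0001. The looser 0.05 is named where it is used. Over all probe sets, 234 were called higher in IVM oocytes (0.974%) and 1155 lower (4.81%). At 0.05 these counts were 3732 (15.5%) and 3602 (15.0%). In 14556 probe sets the 10 values lay within 0.01 of each other, which is called flat below. The array medians were 7.04 to 7.10. The 27 poly-A control probe sets are meant for RNA added before amplification, and the study's methods do not state that such RNA was added. They averaged 7.95 ± 0.20 on IVM and 7.02 ± 0.15 on immature arrays (SD, n = 5 each), and every IVM array was higher (two-sided exact permutation p = 0.00794). The immature mean lay near the array medians. The 18 hybridization control probe sets averaged 10.92 ± 0.19 on IVM and 10.02 ± 0.73 on immature arrays (two-sided exact permutation p = 0.0556), and immature replicates 1 to 3 (9.38 to 9.73) stood below the other 7 arrays (10.75 to 11.22).

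Both activators and the urokinase receptor were higher in every IVM pool than in every immature pool, and so were *SERPINA14* and *SERPINA5*. *PLAT* was 231-fold and *PLAU* 10.7-fold higher. The immature means of *PLAT*, *PLAU*, *SERPINA14* and *SERPINA5* lay below every array median. From the bottom of all probe sets they ranked 47 (*PLAT*), 205 (*PLAU*), 40 and 11 (*SERPINA14*) and 30 (*SERPINA5*). Their folds start from these low values, and how far they are ratios of RNA was not tested. *SERPINE2*, the serpin of the group that is best known as an inhibitor of both activators, overlapped between the groups, and *SERPINF2* was flat. Of the 9 probe sets, 3 were called higher (*PLAT* and both of *SERPINA14*) and 0 lower. With the replicate number as a block, none of the 3 was called (adjusted p = 0.00169 for *PLAT*, 0.00145 and 0.00138 for *SERPINA14*). In that fit 0 of all probe sets were called higher and 0 lower. The differences were unchanged, with smaller standard errors (0.45 for *PLAT*, 0.42 and 0.37 for *SERPINA14*). With the same block over the varying probe sets alone, the 3 were called again. At 0.05, 6 were higher and 0 lower, where 15.5% of all probe sets were higher. In the same 6 probe sets all 5 IVM values lay above all 5 immature values, which held for 11.6% of all probe sets. The genes were chosen with earlier results of these data known, so setting these counts beside the shares is no test. The remaining 3 comprise *SERPINE2* and the 2 flat probe sets of *SERPINF2*.

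**Figure D1:**
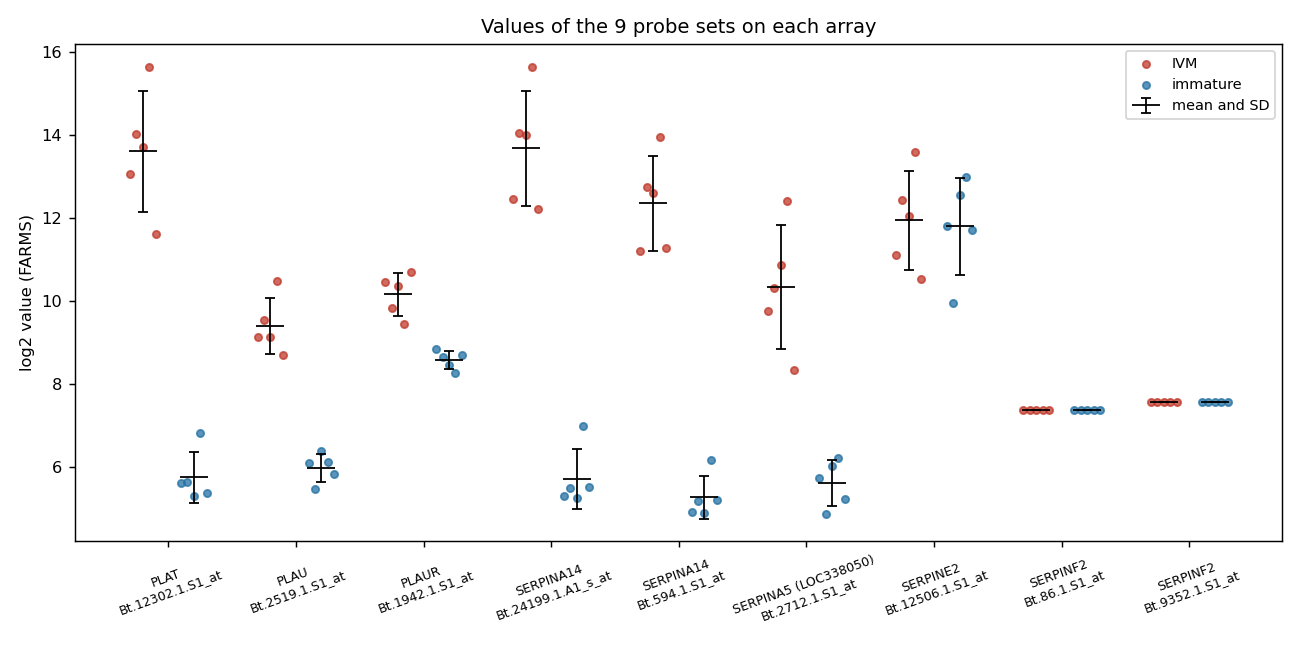
Log2 value (vertical axis) of each of the 9 probe sets on the 5 IVM arrays (red) and the 5 immature arrays (blue), with the mean and SD of each group as bars and replicates 1 to 5 drawn from left to right within a group. The groups lie apart for *PLAT*, *PLAU*, *PLAUR*, *SERPINA14* and *SERPINA5*, overlap for *SERPINE2*, and both *SERPINF2* probe sets are flat. Of *SERPINA14* the set with probes shared by several transcripts is drawn on the left. Heights of different probe sets cannot be compared with each other.

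*PLAT*, the secreted activator that works best on fibrin-bound plasminogen, had values of 13.05, 14.02, 13.70, 15.64 and 11.62 in IVM replicates 1 to 5, against 5.62, 5.65, 5.32, 6.82 and 5.37 in immature replicates 1 to 5. The lowest IVM pool lay 4.80 above the highest immature pool, and replicate 4 was the highest of both groups. The means were 13.61 ± 1.46 in IVM and 5.76 ± 0.61 in immature oocytes (SD, n = 5 each), a difference of 7.85 (standard error 0.70, 95% interval 6.23 to 9.47, adjusted p = 6.68e-05). Only 3 of all tested probe sets had a larger rise. Between arrays of equal number the difference was 7.43, 8.37, 8.38, 8.82 and 6.25, so that it held in 5 of 5. The call ended (adjusted p from 2.10e-04 to 4.09e-04) on leaving out IVM replicate 1, 2 or 3 or any of immature replicates 1 to 5, while the difference stayed between 7.34 and 8.35.

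*PLAU*, the activator that acts mainly at the cell surface, had 9.14, 9.55, 9.13, 10.49 and 8.71 in IVM replicates 1 to 5, against 6.10, 5.49, 6.40, 6.12 and 5.85 in immature ones. The groups were 2.31 apart, and IVM replicates 4 and 5 were again the highest and the lowest of the IVM pools. Its means were 9.40 ± 0.68 in IVM and 5.99 ± 0.34 in immature oocytes (SD, n = 5 each). This was a difference of 3.41 (standard error 0.34, 95% interval 2.64 to 4.19), exceeded by 96 probe sets. The adjusted p of 1.16e-04 missed the call threshold and passed 0.05. *PLAU* was called when IVM replicate 4 was left out (4.91e-05) and when flat probe sets were left out of the adjustment (5.86e-06).

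*PLAUR*, the urokinase receptor, which has no transmembrane part and is held by a lipid anchor, had 10.47, 9.83, 10.36, 9.45 and 10.71 in IVM replicates 1 to 5. In immature replicates 1 to 5 it had 8.85, 8.65, 8.47, 8.26 and 8.70. The groups did not overlap, with a gap of 0.60, the narrowest of the 6 probe sets. Replicate 4, where both activators were highest among the IVM pools, was here the lowest of both groups, and IVM replicate 5 was the highest. The difference was 1.58, or 2.99-fold (means 10.16 ± 0.51 in IVM and 8.59 ± 0.23 in immature oocytes, SD, n = 5 each, standard error 0.25). Its adjusted p of 0.00167 passed 0.05 and missed the call threshold, and 651 probe sets had a larger difference. When the arrays were centred on the poly-A controls its difference was 0.64 (adjusted p = 0.0417), and on the hybridization controls 0.67 (adjusted p = 0.0830), no longer past 0.05. In the latter fit all varying probe sets of these genes had the same standard error, 0.37. Its adjusted p therefore does not reflect the spread of *PLAUR* itself.

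*SERPINA14* encodes the uterine serpin, which the uterus of ruminants and pigs secretes under progesterone and which is known as a weak inhibitor for a serpin. Its 2 probe sets gave like values. Its identifier marks the first as having probes that match more than 1 transcript, and it is called the shared set below. The shared set had 12.47, 14.06, 14.00, 15.65 and 12.22 in IVM replicates 1 to 5, against 5.32, 5.50, 5.26, 6.98 and 5.52 in immature ones. The other, called the single-gene set, had 11.21, 12.74, 12.60, 13.95 and 11.27 in IVM replicates, against 4.93, 5.19, 4.91, 6.18 and 5.21 in immature ones. In both, the groups lay far apart and replicate 4 was the highest of each group. In the shared set the difference was 7.96 (249-fold, standard error 0.69, 95% interval 6.36 to 9.56, adjusted p = 5.63e-05), with means of 13.68 ± 1.39 in IVM and 5.72 ± 0.72 in immature oocytes (SD, n = 5 each). In the single-gene set it was 7.07 (134-fold, standard error 0.56, 95% interval 5.79 to 8.36, adjusted p = 3.15e-05), with 12.36 ± 1.14 in IVM and 5.28 ± 0.52 in immature oocytes. Of all probe sets, 2 had a larger rise than the shared set and 9 a larger one than the single-gene set.

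Calls of *SERPINA14* depended on single arrays. The shared set was called without IVM replicate 4 (adjusted p = 5.85e-05) and lost its call without any other array (1.08e-04 to 3.55e-04). The single-gene set kept its call without IVM replicate 1, 4 or 5 and lost it without IVM replicate 2 or 3 or any immature array (1.08e-04 to 2.15e-04). The difference stayed at 7.47 to 8.33 and at 6.67 to 7.36.

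**Figure D2:**
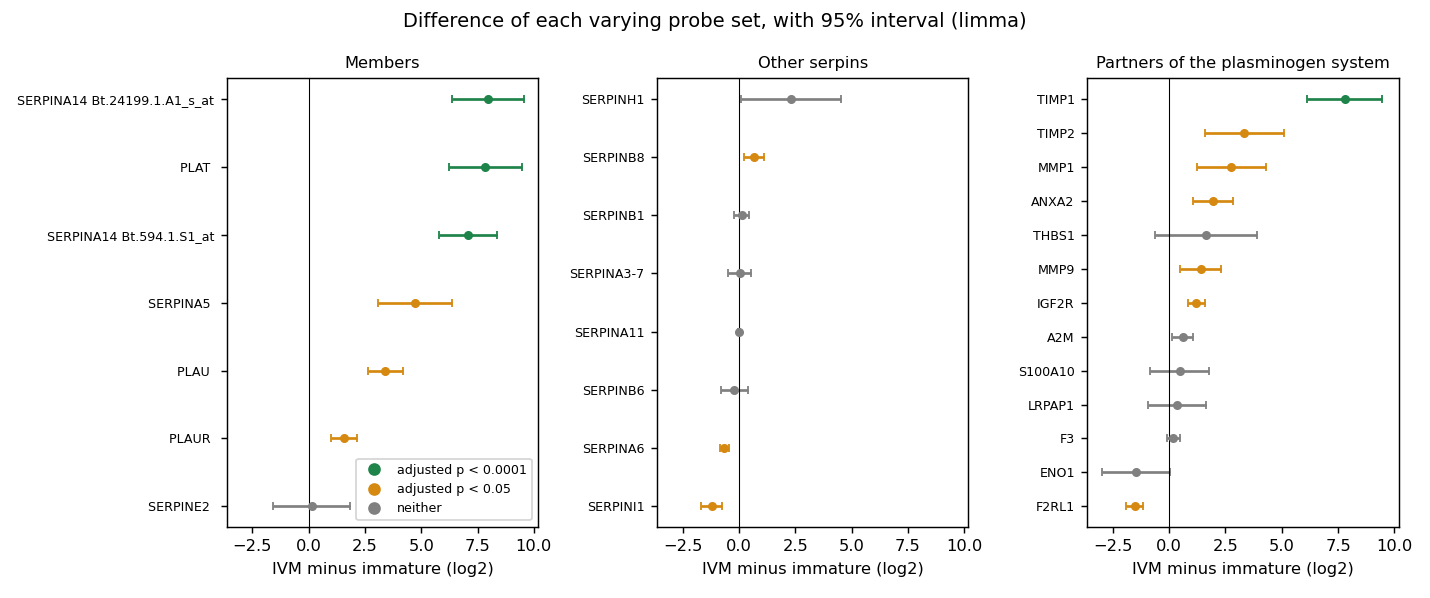
Difference of IVM minus immature oocytes (horizontal axis, log2) with its 95% interval from limma, for the varying probe sets of the 7 genes (left), other serpins (middle) and partners of the plasminogen system (right), 1 probe set a gene in the last 2. Green marks adjusted p under 0.0001, orange under 0.05, grey neither. *SERPINA14* (7.96 and 7.07) and *PLAT* (7.85) lie with *TIMP1* (7.78) at the far right, and the interval of *SERPINE2* spans 0.

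*SERPINA5* was the protein C inhibitor, a heparin-binding serpin of plasma and semen whose targets include activated protein C and urokinase. Its only probe set carries the platform symbol LOC338050, with the synonym PCI in RefSeq (assembly ARS-UCD2.0), and was taken as *SERPINA5* through this former name and the name in the study's list. RefSeq now gives the symbol *SERPINA5* to another gene of the same row of clade A serpins, a row in which related copies lie next to each other. Which copies the probes detect was not examined. The values were 9.77, 10.32, 10.86, 12.42 and 8.34 in IVM replicates 1 to 5, against 5.74, 4.89, 6.04, 6.22 and 5.23 in immature ones. No value overlapped, and the IVM pools spread more widely than the immature pools. Means of 10.34 ± 1.49 in IVM and 5.62 ± 0.56 in immature oocytes (SD, n = 5 each) gave a difference of 4.72, or 26.4-fold (standard error 0.71, 95% interval 3.09 to 6.35). The adjusted p of 0.00128 passed 0.05 and missed the call threshold. Its difference was exceeded by 37 probe sets.

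*SERPINE2* encodes protease nexin-1, which inhibits thrombin, urokinase and the tissue activator and is secreted by bovine granulosa cells. Its values were 11.12, 12.43, 12.04, 13.59 and 10.53 in IVM replicates 1 to 5, against 11.80, 9.95, 12.56, 12.99 and 11.71 in immature ones. The ranges overlapped, and immature replicate 2 was the lowest of all 10 arrays. The means were 11.94 ± 1.19 in IVM and 11.80 ± 1.16 in immature oocytes (SD, n = 5 each). The difference of 0.14 (standard error 0.74, adjusted p = 0.992) had a 95% interval from -1.56 to 1.84, so that these arrays leave room for a change of either sign, and the sign turned under centring on poly-A (-0.79) or hybridization controls (-0.76). Between arrays of equal number the difference was -0.68, 2.48, -0.52, 0.60 and -1.17, higher in IVM in 2 of 5. Leaving out immature replicate 2 gave -0.32 and leaving out IVM replicate 4 gave -0.27.

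*SERPINF2* encodes the plasma antiplasmin, which blocks plasmin itself rather than its activators. Of its 2 probe sets, the level was 7.39 in the first and 7.58 in the other on all 10 arrays. These arrays therefore give no information on whether *SERPINF2* differs between IVM and immature oocytes.

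For each of the 6 rising probe sets the two-sided exact permutation p was 0.00794, the smallest that 5 against 5 arrays allow. It was 0.841 for *SERPINE2*. With arrays of equal number taken as pairs, a two-sided exact sign-flip test gave p = 0.0625 for each of the 6. That is the smallest that 5 pairs allow, and *SERPINE2* had 0.875.

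The groups also differed in how the genes stood to each other on the same array. A value of a probe set holds its own probe response, so only the change of such a within-array difference between the groups is given, with no test. *PLAT* gained 7.71 on *SERPINE2* in IVM oocytes relative to immature ones, and *PLAU* gained 3.27 on it, with no overlap between IVM and immature arrays. The SD of the within-array difference of *PLAT* and *SERPINE2* was 0.37 over the IVM arrays, where those of *PLAT* and *SERPINE2* taken alone were 1.46 and 1.19. Over the immature arrays it was 1.07, where those taken alone were 0.61 and 1.16. *PLAT* gained 4.44 on *PLAU*, and *PLAU* gained 1.84 on *PLAUR*, again with no overlap. *PLAT* gained 0.78 on the single-gene set of *SERPINA14*, though its own difference (7.85) was no larger than that of the shared set (7.96), and *PLAU* lost ground to *SERPINA5* (-1.31), and in both cases the groups overlapped.

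**Figure D3:**
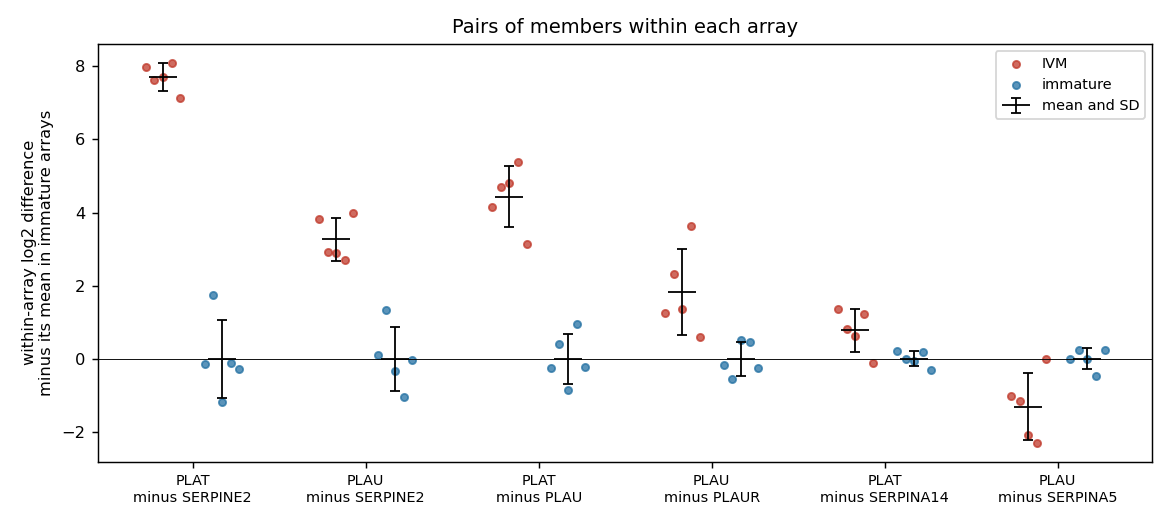
Difference between 2 genes on the same array (log2, vertical axis), minus its mean over the immature arrays, for the 5 IVM arrays (red) and the 5 immature arrays (blue), with mean and SD as bars. *PLAT* minus *SERPINE2*, *PLAU* minus *SERPINE2*, *PLAT* minus *PLAU* and *PLAU* minus *PLAUR* separate the groups, and the pairs with *SERPINA14* and *SERPINA5* overlap.

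Most of the 7 varying probe sets had the same arrays at their extremes. IVM replicate 4 was the highest IVM array in 6 of the 7 and the lowest in *PLAUR*. IVM replicate 5 was the lowest in 5 and the highest in *PLAUR*. Immature replicate 4 was the highest immature array in 5. Averaged over the 6 rising probe sets, the deviation from the group mean was -0.57, 0.16, 0.18, 1.34 and -1.11 in IVM replicates 1 to 5, and -0.07, -0.26, -0.09, 0.60 and -0.18 in immature ones. For the 15 varying markers of cumulus and granulosa cells, of 21 on the array, it was -0.39, 0.31, -0.09, 1.11 and -0.93 in IVM replicates, and -0.02, -1.14, 0.59, 0.84 and -0.27 in immature ones. In both, replicate 4 stood highest in each group, and IVM replicate 5 and immature replicate 2 stood lowest in theirs. The 9 oocyte markers had the opposite extremes in both groups. Their deviations were 0.35, -0.27, 0.13, -0.81 and 0.59 on IVM arrays, and 0.04, 0.22, 0.00, -0.29 and 0.03 on immature arrays.

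**Figure D4:**
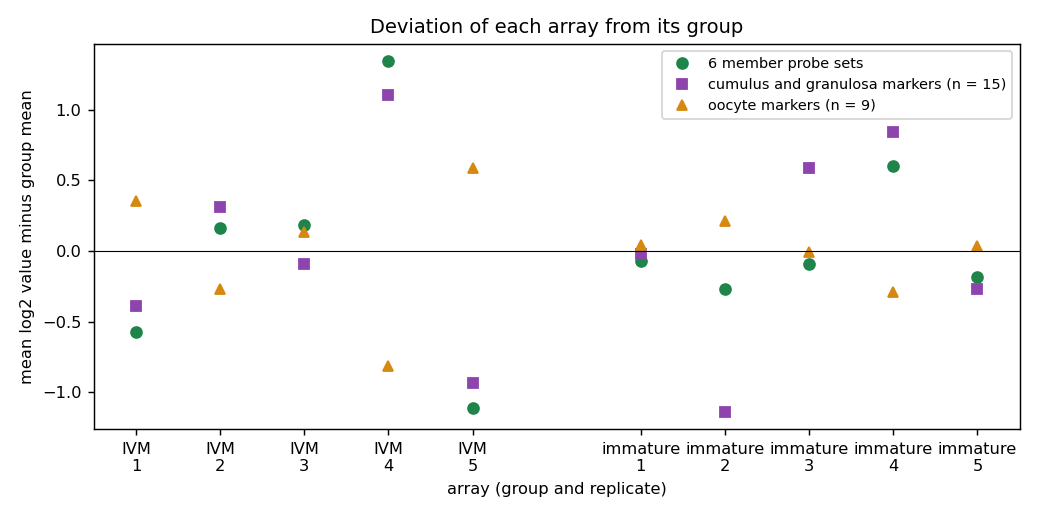
Mean log2 value of an array minus the mean of its group (vertical axis) for the 5 IVM arrays (left) and the 5 immature arrays (right), averaged over the 6 rising probe sets (green circles), 15 cumulus and granulosa markers (purple squares) and 9 oocyte markers (orange triangles). Replicate 4 is highest in both groups for the circles and squares and lowest for the triangles. IVM replicate 5 and immature replicate 2 have the opposite place.

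The extremes thus fell together in replicate 4, in IVM replicate 5 and in immature replicate 2, but not in *PLAUR*. Nor did they in immature replicate 3, where the cumulus and granulosa markers stood above and the rising probe sets slightly below their group means. The part of the somatic markers in the results was not tested. The mean level of the cumulus and granulosa list was 8.79 to 10.83 on IVM and 7.40 to 9.38 on immature arrays, ranges that overlap. At 0.05, 5 of its genes were higher, among them *TNFAIP6* (difference 10.86) and *PTX3* (6.38), matrix proteins of the expanding cumulus, and 2 were lower, *CYP19A1* (-1.38) and *STAR* (-1.19), of steroid synthesis. *INHA*, *INHBA* and *FST*, granulosa products, overlapped between the groups, and *INHA* had, like *SERPINE2*, its lowest value in immature replicate 2 (7.99). *AREG*, *BTC*, *LHCGR*, *FOXL2* and *CD44* were flat, as was the probe set that stood for *NR5A1*, of whose 4 probe sets 1 varied. Of 12 markers of theca, stroma and vessels 4 varied, with 3 higher and 1, itself flat, lower at 0.05, and of 13 blood and immune markers 12 were flat. The 9 oocyte markers, all varying, averaged 10.21 to 11.61 on IVM and 12.45 to 12.95 on immature arrays, and 5 of them were lower and 1 higher at 0.05. Without replicate 4 of both groups, left out after seeing the data, *PLAT* had an adjusted p of 1.59e-04, the shared set of *SERPINA14* 1.02e-04, *PLAU* 2.81e-04, *PLAUR* 0.00138 and *SERPINA5* 0.00248, and the single-gene set of *SERPINA14* (8.93e-05) was the only 1 of the 3 calls to remain.

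The other serpins on the array were 17 genes, and 0 were called, where 0.974% of all probe sets were called higher and 4.81% lower. At 0.05, 1 was higher and 2 were lower, against 15.5% and 15.0% of all probe sets. With so few genes, these counts show no contrast to all probe sets. Of the 17 genes, 8 varied and 9 were flat, the plasma inhibitors *SERPINC1* (antithrombin) and *SERPINA1* (antitrypsin) among the flat ones. The median difference of the varying ones was 0.03, against 0.18 over all varying probe sets. At 0.05, *SERPINB8*, an intracellular serpin, was higher (7.09 ± 0.41 in IVM and 6.43 ± 0.14 in immature oocytes, difference 0.67, adjusted p = 0.0320). *SERPINA6*, the carrier of corticosteroids in plasma, was lower (6.93 ± 0.15 in IVM and 7.58 ± 0.12 in immature oocytes, difference -0.65, adjusted p = 5.35e-04), and so was *SERPINI1*, neuroserpin, which inhibits the tissue activator in brain (6.54 ± 0.36 in IVM and 7.74 ± 0.27 in immature oocytes, difference -1.20, adjusted p = 0.00216). *SERPINH1*, the collagen chaperone, had a difference of 2.31 (standard error 0.96, adjusted p = 0.114) with overlapping groups and its highest value in IVM replicate 4 (13.66). Of the neighbours of *SERPINA14* in the clade A row, *SERPINA1* and *SERPINA10* were flat, *SERPINA11* and *SERPINA3-7* overlapped and *SERPINA6* was lower, while *SERPINA14* and LOC338050 were the 2 members of the row on the array that were higher at 0.05.

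Of 30 other partners of the plasminogen system on the array, 13 varied. Plasminogen itself (*PLG*) was flat, as were its binding protein *HRG* and the matrix protein *VTN*. *TIMP1*, an inhibitor of matrix metalloproteinases, was the only 1 called, with a difference of 7.78. At 0.05, 8 were higher and 2 lower, against 15.5% and 15.0% of all probe sets, but *F2R* and *MMP14* among the higher and *HRG* among the lower were flat, with differences under 0.01. *TIMP2*, a second such inhibitor, was higher by 3.34 (adjusted p = 0.0103), the collagenase *MMP1* by 2.76 (0.0135) and *ANXA2*, a cell surface protein that binds plasminogen and the tissue activator, by 1.94 (0.00525). *F2RL1*, a receptor switched on by proteolysis, was lower (difference -1.53, adjusted p = 1.47e-04). *S100A10*, the partner of *ANXA2*, had a difference of 0.46 with overlapping groups. The median difference of the 13 was 1.21.

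By the root mean square difference of centred profiles over the 10 arrays, the 7 genes were set against 5206 other named genes, and against each other apart from these. Among the other genes, *TIMP1* was nearest to *PLAT* (0.48) and to both probe sets of *SERPINA14* (0.25 in the shared and 0.47 in the single-gene set). *IFI27*, an interferon-induced gene, came next for *PLAT* (0.49) and for the shared set of *SERPINA14* (0.57), and *RCAN1*, an inhibitor of calcineurin, followed for *PLAT* (0.50). *PLAT* and the shared set were at 0.31 from each other, so that the shared set was nearer to *PLAT* than *TIMP1* was, and the 2 probe sets of *SERPINA14* were at 0.49. Nearest to *PLAU* were *TSPO* (0.31), *IFITM1* (0.35) and *SGK1* (0.36), and nearest to *SERPINA5* were *TMEM176B* (0.42), *IFIT5* (0.45) and *EPHX2* (0.48). *PLAUR* had *ZMYND8* (0.13), *ABLIM1* (0.15) and *ARHGAP32* (0.16) nearest. *SERPINE2* was nearest to *ST3GAL4* (0.24), *FUCA1* (0.27) and *BEX3* (0.27). For the rising genes this measure is set mostly by the size of the group difference, which the listed genes share.

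For the rising probe sets, scaling changed the sizes of the differences and not their direction, while *SERPINE2* changed sign. Centring each array on its poly-A controls lowered every difference by 0.94, and centring on the hybridization controls lowered it by 0.90. With the poly-A controls *PLAT* had a difference of 6.91, *SERPINA14* 7.03 and 6.14, *SERPINA5* 3.79 and *PLAU* 2.48, each called. Of the rising probe sets, that of *PLAUR* changed most in proportion. When the 5 IVM arrays were set against immature replicates 4 and 5 alone, the arrays with a like level of hybridization controls, the differences were 7.51 for *PLAT* (adjusted p = 0.0148), 7.43 and 6.66 for *SERPINA14* (0.0134 and 0.00958), 3.42 for *PLAU* (0.0134), 1.69 for *PLAUR* (0.0530) and 4.62 for *SERPINA5* (0.0600), with 2 immature arrays left.

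**Figure D5:**
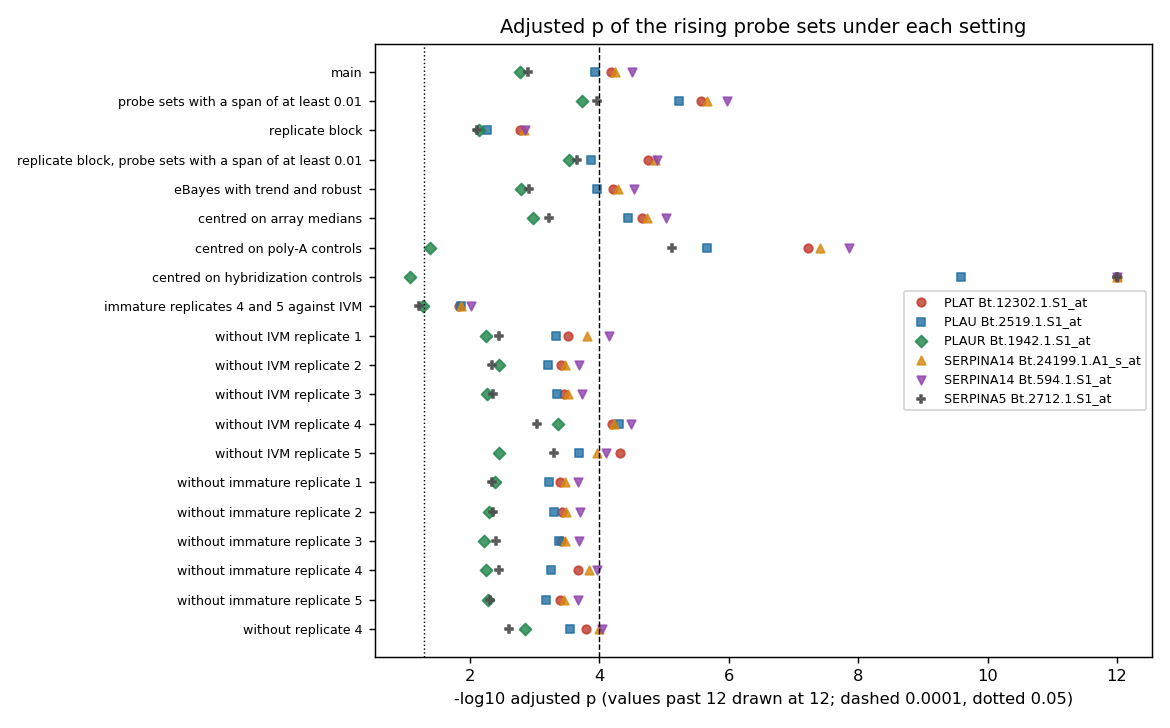
Size of the adjusted p as its negative log10 (horizontal axis, further right is smaller) for the 6 rising probe sets under each setting (vertical axis), with the thresholds 0.0001 (dashed) and 0.05 (dotted). The points of *PLAUR* and *SERPINA5* lie left of the others in most settings, the points of *PLAT* and *SERPINA14* stand close to the dashed line when an array is left out, and with the replicate block over all probe sets no point reaches it.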

How the data were processed

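The deposited values are log2 values of 24128 probe sets on 10 arrays. The authors read the images with GCOS, quantile-normalized the probes and summarised them with FARMS. From each pool, 100 ng of RNA had gone through 2 rounds of amplification. The 112 control probe sets were set apart.

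The groups, as labelled, were compared in R 4.3.3 with limma 3.58.1 (lmFit, then eBayes), with Benjamini-Hochberg adjustment over 24016 probe sets. The adjusted p under 0.0001 is the rate of the study's methods. The prior had 0.103 degrees of freedom, since 14556 probe sets were flat. The script was tested on simulated data.

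Symbols came from the platform's annotation, updated through RefSeq for 13263 probe sets by gene identifier. Another 10638 were unnamed here. For gene lists, the probe set with the highest mean stood for a gene. Named are the 7 genes, up to 4 genes with the largest rise and 4 with the largest fall at 0.05 of each other list, markers, the 3 nearest profiles of each varying probe set, and a few genes named for their role. Genes and lists were chosen with earlier results of these data known. Alternatives covered the probe sets tested, the replicate block, the prior, scaling, arrays left out and thresholds. One serpin relevant to this pathway is not reported here. The number of arrays limits the precision.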

Additional observations from a re-analysis of the deposited data

Results flagged for a closer look

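Immature replicate 4 stood apart from the other 4 immature arrays in 3 probe sets. It had 6.82 for *PLAT* with 5.65 on the next array, so that the gap was 0.782 of the group's range. For *SERPINA14* it had 6.98 in the shared set (next 5.52, 0.851 of the range) and 6.18 in the single-gene set (next 5.21, 0.765 of the range). Each ratio was above the Dixon critical value of 0.71 for 5 arrays. In all, 18 groups were examined, and chance marks about 1 in 20. The 3 marks are not independent, since all fell on the same array and both sets of *SERPINA14* are of the same gene. This array still lay 4.80 below the lowest IVM array for *PLAT*. On the same array the cumulus and granulosa markers were the highest of the immature group (9.38) and the oocyte markers the lowest (12.45). The part of either in the 3 values was not tested.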

How the results depend on the processing

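The rising probe sets stayed higher in IVM oocytes under every setting, while calls at 0.0001 did not. Of the 9 probe sets of the 7 genes, the 3 called higher became 4 over the probe sets with a span of at least 0.01 and with centring on array medians, 5 with poly-A and 5 with hybridization controls, 6 at 0.05, 1 without replicate 4 of both groups and 0 to 4 on leaving out single arrays. Over all probe sets, the 234 called higher became 685 over the varying probe sets, 382 with array medians, 165 with poly-A and 203 with hybridization controls. They became 105 without replicate 4 and 77 to 318 without single arrays. The 1155 called lower became 18661 with poly-A controls, 2437 with hybridization controls, 683 without replicate 4 and 703 to 1097 without single arrays. Against immature replicates 4 and 5 alone, 0 were higher and 4 lower, with 0 of the 7 genes and 0 partners called.

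By the methods replicates were days of collection, and the complexes were split evenly between immediate stripping and culture. The labels, however, do not say that equal numbers share a day. Same-numbered arrays deviated with r = 0.149, -0.343, 0.0818, 0.676 and 0.352 across probe sets. For 4 of the 5 numbers the highest r with any differently numbered array was larger (0.561, 0.626, 0.355 and 0.626). The highest of several r can exceed a single r by selection alone, so this does not decide whether equal numbers are pairs. With the replicate block over all probe sets, 0 were called higher and 0 lower, with 0 of the 7 genes and 0 partners. With this block over the varying probe sets, 172 were higher and 930 lower, and *PLAT* (1.76e-05) and *SERPINA14* (1.36e-05 and 1.27e-05) were called.

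*SERPINE2* changed sign with poly-A controls (-0.79, adjusted p = 0.176), hybridization controls (-0.76, 0.0496), immature replicates 4 and 5 alone (-0.40), and single arrays left out (-0.32 to 0.50). With hybridization controls all varying probe sets of the 7 genes had the same standard error, 0.37. The adjusted p and the calls of that setting therefore do not reflect the spread of each probe set. With poly-A controls 2 of the 7 genes' probe sets were lower, those of *SERPINF2*, flat before, since this centring lowers every flat probe set by 0.94. With poly-A controls 14 other serpins and 18 partners were also lower. The lists hold 9 and 17 flat genes, so varying genes were among those lower. With hybridization controls 1 other serpin and 2 partners were lower. At 0.05, 1 other serpin was higher and 2 lower, and 8 partners were higher and 2 lower. The 1 partner called higher became 2 over varying probe sets, 3 with hybridization controls, 0 without replicate 4 and 0 to 1 without single arrays. The 0 partners called lower became 1 over varying probe sets, with array medians or with every probe set counted, and 0 to 1 without single arrays. The hybridization controls differed by 0.744 to 1.11 without single arrays. The cause of these changes was not tested, except for the smaller number of arrays or probe sets that a setting fixes.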
